A study of Homo sapiens with 12 samples.

Results

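The genes described here are the NF-kB subunits and their inhibitors, 10 genes taken by symbol from the 57370 genes of the deposited counts: NFKB1, NFKB2, REL, RELA, RELB, NFKBIA, NFKBIE, NFKBIZ, TNFAIP3 and BCL3. All 10 were found by Ensembl identifier, and all 10 passed the filter on low counts in every comparison. Their RNA was measured in HaCaT, an immortalized line of human keratinocytes, in 4 groups of 3 libraries. HaCaT_sh+cyto and HaCaT_sh are cells with a lentiviral hairpin RNA against IQGAP3, a scaffold protein of the IQGAP family, grown with and without cytokines. HaCaT_ctrl+cyto and HaCaT_ctrl are cells with a scrambled hairpin, grown the same way. Both lines were selected with puromycin as stable clones, whose number is not given in the sources used here, and all 4 groups received doxycycline (1000 ng/mL) to switch on the hairpin. The stimulated cells then received a mix of 100 ng/mL of IL-17, 25 ng/mL of TNFα and 20 ng/mL of IFNγ for 72 h, so the values describe a late state and not the first hours of a response.

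NF-kB is a family of transcription factors that act as pairs of subunits. RELA (p65), REL (c-Rel) and RELB carry activation domains, while NFKB1 and NFKB2 encode the precursors p105 and p100, which are processed to p50 and p52. In resting cells the pairs are held in the cytoplasm by IkB proteins such as NFKBIA (IkBα) and NFKBIE (IkBε), which are degraded when TNF or another signal activates the IKK kinases. The atypical IkB proteins NFKBIZ (IkBζ) and BCL3 work in the nucleus on p50 or p52, and TNFAIP3 (A20) is a ubiquitin-editing enzyme that shuts off signalling upstream of IKK. Several of these genes are themselves NF-kB targets, and in keratinocytes the pathway is best known for the cytokine response of psoriatic skin.

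RefSeq promoters, running from 250 bases before to 50 bases after a start site, were at hand for 8 of the 10 members, 13 promoters in all. RELB and NFKBIE were the other members. The promoters below are shown because their genes passed the test in the cytokine response of both lines, and because they hold the kB consensus, the sequence that NF-kB subunits are known to recognise. They are read 5′ to 3′ on the strand of the gene in GRCh38.p14, and the capitals mark each match to the kB consensus on either strand.
TNFAIP3, chr6:137867009-137867308, + strand: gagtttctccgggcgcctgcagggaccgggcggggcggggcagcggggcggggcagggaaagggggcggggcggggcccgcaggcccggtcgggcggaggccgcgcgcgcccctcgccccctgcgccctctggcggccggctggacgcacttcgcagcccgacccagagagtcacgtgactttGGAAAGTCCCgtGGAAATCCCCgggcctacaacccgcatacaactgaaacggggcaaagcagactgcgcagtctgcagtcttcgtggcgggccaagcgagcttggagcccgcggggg
NFKB2 (the second of 3 promoters), chr10:102394328-102394627, + strand: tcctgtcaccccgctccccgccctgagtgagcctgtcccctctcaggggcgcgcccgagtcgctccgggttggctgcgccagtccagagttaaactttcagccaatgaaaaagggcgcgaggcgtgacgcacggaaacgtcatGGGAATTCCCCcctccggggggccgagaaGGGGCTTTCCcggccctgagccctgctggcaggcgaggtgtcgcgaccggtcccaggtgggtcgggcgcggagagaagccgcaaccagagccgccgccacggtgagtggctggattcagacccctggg
NFKBIZ (the first of 2 promoters), chr3:101827740-101828039, + strand: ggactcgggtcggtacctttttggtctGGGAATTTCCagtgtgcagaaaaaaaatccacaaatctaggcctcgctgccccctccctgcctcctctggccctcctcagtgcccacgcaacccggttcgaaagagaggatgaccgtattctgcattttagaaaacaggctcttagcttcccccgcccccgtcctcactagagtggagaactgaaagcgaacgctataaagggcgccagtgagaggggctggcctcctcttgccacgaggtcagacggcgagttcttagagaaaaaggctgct
REL, chr2:60881324-60881623, + strand: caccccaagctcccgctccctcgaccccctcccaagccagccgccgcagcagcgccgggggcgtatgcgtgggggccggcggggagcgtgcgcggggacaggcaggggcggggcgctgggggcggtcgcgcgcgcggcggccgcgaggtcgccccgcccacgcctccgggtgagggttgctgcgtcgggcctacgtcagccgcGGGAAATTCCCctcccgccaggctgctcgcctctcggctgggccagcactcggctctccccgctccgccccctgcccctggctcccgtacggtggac

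The TNFAIP3 promoter holds 2 separate matches, GGAAAGTCCC and GGAAATCCCC, which begin 67 and 55 bases before the start. The second NFKB2 promoter also holds 2, GGGAATTCCCC and GGGGCTTTCC, at 107 and 78 bases before the start, and the third NFKB2 promoter has GGGGCTTCCC and GGGACTTTCC at 176 and 21 bases before it. Those of NFKBIZ lie farther out, GGGAATTTCC at 223 bases in the first promoter and GGGGTTTCCC at 239 bases in the second. REL has GGGAAATTCCC at 47 bases, NFKB1 has GGGAATTTCC at 49 bases in its first promoter, and NFKBIA has GGAAATTCCC at 81 bases. In BCL3 the match GGGAAGTCCC begins 2 bases after the start.

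The kB consensus was present in 9 of the 13 promoters and in 7 of the 8 members, and RELA was the member with none. Over all 35116 RefSeq promoters of that length, 5.91% held it, and over the 27305 genes with such a promoter, 7.09% did. The looser form, GGG and CC with any 5 bases between them, contains every match above. It was in all 8 members, against 61.7% of all genes with such a promoter, and in 58.7% of all promoters. The interferon-gamma activated site TTCNNNGAA was in 1 of the 8 members, RELA, against 9.38% of all genes with such a promoter. A match is a description of the letters only, and no match says nothing of distant sites or of binding.

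**Figure D1:**
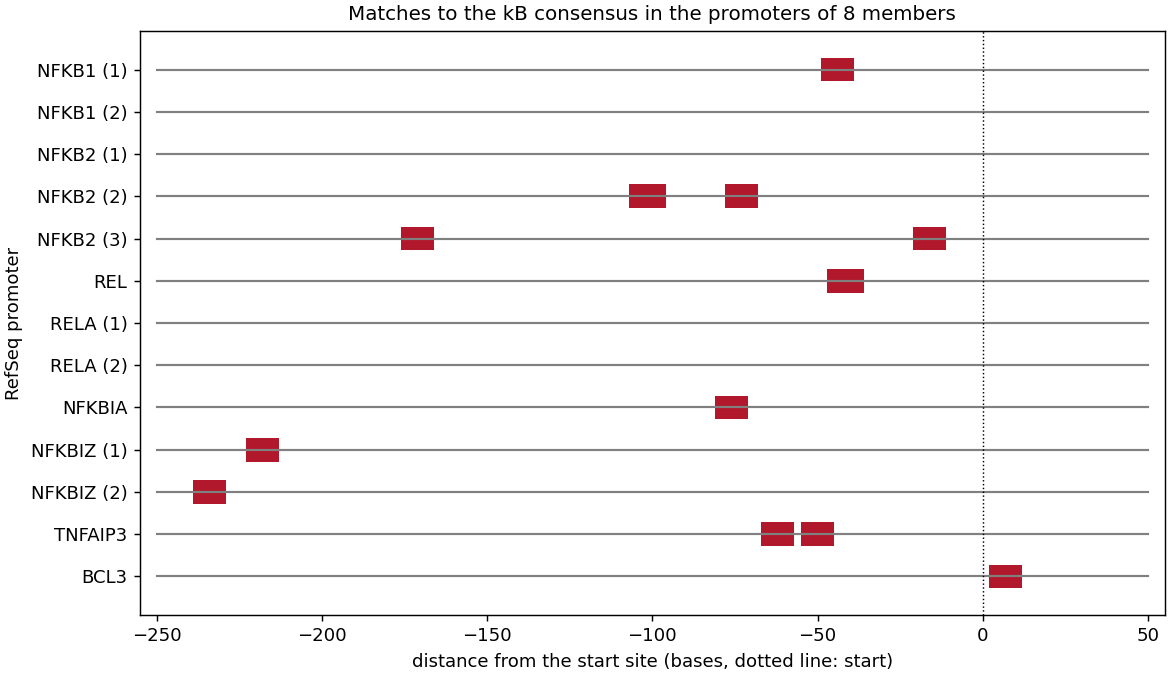
Positions of kB consensus matches (filled boxes) in the 13 RefSeq promoters of 8 members, as the distance in bases from the start site (dotted line). The matches of TNFAIP3, NFKBIA, NFKB1 and REL begin between 47 and 81 bases before the start, those of NFKBIZ 223 and 239 bases before it, and the promoters of RELA hold none.

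The libraries held between 13079055 and 17308021 counts, and replicates of a group correlated at r between 0.987 and 0.996 over genes. The targeted gene went against its label without cytokines. IQGAP3 was at 115, 101 and 98.2 CPM (counts scaled to library size) in the libraries labelled HaCaT_sh, against 75.0, 70.4 and 77.3 CPM in HaCaT_ctrl, which is a difference of 0.50 on the log2 scale (SE 0.0612, adjusted p = 4.68e-06, edgeR). With cytokines it was at 1.15, 1.64 and 0.913 CPM in the libraries labelled HaCaT_sh+cyto, against 1.89, 3.97 and 4.07 CPM in HaCaT_ctrl+cyto (log2 fold change −1.44, SE 0.354, adjusted p = 0.0158). Its log2 fold change with cytokines was −6.41 in the HaCaT_sh line (adjusted p = 1.32e-10) and −4.44 in the control line (adjusted p = 1.14e-08). These responses differed by −1.95 (adjusted p = 7.59e-04). Stimulated libraries held 13 to 67 counts of IQGAP3, so comparisons between the stimulated lines are of cells with little IQGAP3 RNA in both. The study also examined IQGAP3 by quantitative PCR and Western blot, which are not analysed here. Directions between the lines below are directions between labelled libraries. All 10 keratinocyte markers were at 1 CPM or more in every library, with sums of 11152 to 11930 CPM in HaCaT_sh+cyto, 7539 to 8909 in HaCaT_ctrl+cyto, 10560 to 11177 in HaCaT_sh and 9450 to 9823 in HaCaT_ctrl. The leukocyte markers PTPRC, CD3E, CD68 and LYZ stayed under 1 CPM in every library. The fibroblast markers summed to 7.35 to 9.27, 1.94 to 3.72, 20.3 to 22.2 and 20.6 to 21.97 CPM in the same order of groups, and 3 endothelial markers to 0.493 to 1.26, 0.378 to 1.83, 16.1 to 30.6 and 17.6 to 19.1 CPM. The part of these differences in the results below was not tested.

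With cytokines, some subunits and some inhibitors were called higher in both lines, with TNFAIP3 far ahead of the rest, and REL was called lower. In the libraries labelled HaCaT_sh+cyto, 5 members were called higher and 1 lower than in HaCaT_sh, where 14.9% and 21.0% of all tested genes were. In HaCaT_ctrl+cyto, 6 members were called higher and 1 lower than in HaCaT_ctrl, where 14.7% and 21.1% of all tested genes were. To be called, a gene had to differ at least 2-fold with an adjusted p under 0.01. The members called in both lines were NFKB2, RELB, NFKBIE, NFKBIZ and TNFAIP3, all higher, and REL, lower. RELA was the further call in the control line, and was 1.67-fold higher in the HaCaT_sh line. The median log2 fold change of the members was 1.23 in the HaCaT_sh line and 1.24 in the control line, against −0.02 and −0.03 over all genes tested. In bulk RNA, more RNA per cell and more cells that carry the RNA cannot be told apart.

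TNFAIP3, which encodes the ubiquitin-editing brake A20, had by far the greatest response among the members. It was at 425, 418 and 417 CPM in HaCaT_sh+cyto, against 7.51, 5.80 and 7.64 CPM in HaCaT_sh. In the control line it was at 494, 428 and 450.2 CPM in HaCaT_ctrl+cyto, against 9.998, 9.81 and 9.49 CPM in HaCaT_ctrl. Stimulated and unstimulated libraries were far apart, the lowest stimulated one at 417 CPM and the highest unstimulated one at 9.998 CPM. The level was 60.4-fold higher in the HaCaT_sh line (log2 fold change 5.92, SE 0.0968, adjusted p = 2.91e-11) and 47.8-fold higher in the control line (5.58, SE 0.0884, adjusted p = 1.42e-10). The lncRNA gene WAKMAR2, chosen after its values were seen because it overlaps TNFAIP3 on the opposite strand, holds 3094 counts over the 12 libraries, against 40294 for TNFAIP3. Since the strand setting of the counting is not given, reads of this pair cannot be told apart. WAKMAR2 was at 26.2, 29.1 and 17.5 CPM in HaCaT_sh+cyto and at 49.2, 40.04 and 41.0 CPM in HaCaT_ctrl+cyto, and under 1 CPM in every unstimulated library.

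RELB encodes the subunit that pairs with p52 in the noncanonical branch of the pathway. It was at 59.3, 60.2 and 56.9 CPM in HaCaT_sh+cyto, against 7.56, 8.42 and 10.8 CPM in HaCaT_sh. Control cells had 58.3, 59.6 and 51.2 CPM in HaCaT_ctrl+cyto, against 14.4, 14.6 and 13.5 CPM in HaCaT_ctrl. The stimulated libraries of the 2 lines reached overlapping levels, while the unstimulated ones did not overlap. The log2 fold change was 2.73 (SE 0.114, adjusted p = 5.86e-09) in the HaCaT_sh line and 2.02 (SE 0.0884, adjusted p = 1.92e-08) in the control line.

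NFKB2, the gene of the p52 precursor p100, rose in both lines. It was at 153, 142 and 193 CPM in HaCaT_sh+cyto, against 50.2, 45.1 and 52.3 CPM in HaCaT_sh, and at 205, 179 and 157 CPM in HaCaT_ctrl+cyto, against 55.4, 60.7 and 55.4 CPM in HaCaT_ctrl. The log2 fold change was 1.74 (SE 0.108, adjusted p = 1.08e-07) in the HaCaT_sh line and 1.69 (SE 0.0977, adjusted p = 1.27e-07) in the control line. NFKB1, the gene of the p50 precursor p105, moved less than 2-fold in either line. It was at 53.4, 57.6 and 57.5 CPM in HaCaT_sh+cyto, against 38.8, 37.8 and 38.0 CPM in HaCaT_sh, which is 0.57 on the log2 scale (SE 0.0643, adjusted p = 1.20e-05). HaCaT_ctrl+cyto had 66.9, 55.2 and 55.8 CPM, against 67.5, 67.5 and 67.8 CPM in HaCaT_ctrl, a log2 fold change of −0.16 (SE 0.0820, adjusted p = 0.0980). Without the first HaCaT_ctrl+cyto library it was −0.25 (adjusted p = 0.00219), and with scaling by library size alone −0.37 (adjusted p = 0.00109). The HaCaT_sh libraries stood alone as the low group for NFKB1, below all 9 other libraries.

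RELA encodes p65, the main activating subunit of the canonical branch. It was at 166, 165 and 162 CPM in HaCaT_sh+cyto, against 95.4, 95.8 and 106 CPM in HaCaT_sh (log2 fold change 0.74, SE 0.0613, adjusted p = 9.57e-07, 1.67-fold). In the control line it was at 179, 179 and 210.1 CPM in HaCaT_ctrl+cyto, against 95.8, 102 and 89.8 CPM in HaCaT_ctrl (1.02, SE 0.0813, adjusted p = 1.30e-06, 2.02-fold). The stimulated libraries were all above the unstimulated ones, and the control line sat just at the 2-fold threshold. Without the third library of HaCaT_ctrl+cyto the log2 fold change was 0.94 (adjusted p = 4.27e-07), and without the third of HaCaT_ctrl it was 0.97 (adjusted p = 2.56e-05), so the call needs both of these libraries.

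REL, the gene of c-Rel, was the member that fell. It was at 15.99, 12.7 and 27.1 CPM in HaCaT_sh+cyto, against 36.4, 40.7 and 40.2 CPM in HaCaT_sh (log2 fold change −1.05, SE 0.203, adjusted p = 6.40e-04). Control cells had 18.0, 16.6 and 17.9 CPM in HaCaT_ctrl+cyto, against 45.3, 46.8 and 45.3 CPM in HaCaT_ctrl (−1.36, SE 0.0762, adjusted p = 1.04e-07). All stimulated libraries were below all unstimulated ones, and the third library of HaCaT_sh+cyto was the highest of the stimulated ones. In the HaCaT_sh line the fall stayed under 2-fold without the first library of HaCaT_sh+cyto (−0.95, adjusted p = 0.00480) or without the second (−0.86, adjusted p = 7.20e-04).

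Among the inhibitors, NFKBIZ encodes the nuclear IkBζ, a cofactor of IL-17 target genes. It was at 116, 110.0 and 143 CPM in HaCaT_sh+cyto, against 23.4, 29.4 and 26.2 CPM in HaCaT_sh (log2 fold change 2.23, SE 0.111, adjusted p = 2.05e-08). In the control line it was at 151, 86.3 and 82.4 CPM in HaCaT_ctrl+cyto, against 30.3, 32.3 and 29.6 CPM in HaCaT_ctrl (1.82, SE 0.208, adjusted p = 1.80e-05). The groups did not overlap in either line, but the first library of HaCaT_ctrl+cyto stood well above its replicates. NXPE3 overlaps NFKBIZ on the same strand with 1237 counts over the 12 libraries, against 13133 for NFKBIZ, so the NFKBIZ values carry that uncertainty.

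NFKBIE encodes IkBε, one of the cytoplasmic inhibitors. It was at 30.4, 31.2 and 34.9 CPM in HaCaT_sh+cyto, against 10.36, 10.5 and 12.03 CPM in HaCaT_sh (log2 fold change 1.56, SE 0.0962, adjusted p = 9.77e-08). In the control line it was at 26.8, 23.9 and 20.0 CPM in HaCaT_ctrl+cyto, against 9.73, 8.30 and 8.09 CPM in HaCaT_ctrl (1.47, SE 0.134, adjusted p = 3.49e-06). In both states its HaCaT_sh libraries were above the control ones without overlap.

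NFKBIA encodes IkBα, the best known cytoplasmic inhibitor, and was not called in either line. It was at 98.6, 87.7 and 119.8 CPM in HaCaT_sh+cyto, against 52.4, 55.6 and 57.3 CPM in HaCaT_sh (log2 fold change 0.90, SE 0.0997, adjusted p = 9.97e-06). Control cells had 122, 77.3 and 82.4 CPM in HaCaT_ctrl+cyto, against 70.6, 78.0 and 71.9 CPM in HaCaT_ctrl (0.38, SE 0.151, adjusted p = 0.0373). The control groups overlapped, since the second HaCaT_ctrl+cyto library lay below the second HaCaT_ctrl library, and the first HaCaT_ctrl+cyto library was again the high one. Without it the log2 fold change in the control line was 0.15.

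BCL3, the other nuclear member, was also under 2-fold in both lines. It was at 46.9, 42.1 and 47.6 CPM in HaCaT_sh+cyto, against 31.0, 32.7 and 38.7 CPM in HaCaT_sh (log2 fold change 0.43, SE 0.0922, adjusted p = 0.00139). Control cells had 43.6, 37.8 and 43.0 CPM in HaCaT_ctrl+cyto, against 24.6, 21.8 and 21.2 CPM in HaCaT_ctrl (0.91, SE 0.0918, adjusted p = 7.14e-06). The HaCaT_ctrl libraries were the low group, and the third HaCaT_sh library lay above the second HaCaT_ctrl+cyto library, while within each line the stimulated libraries were all above the unstimulated ones.

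**Figure D2:**
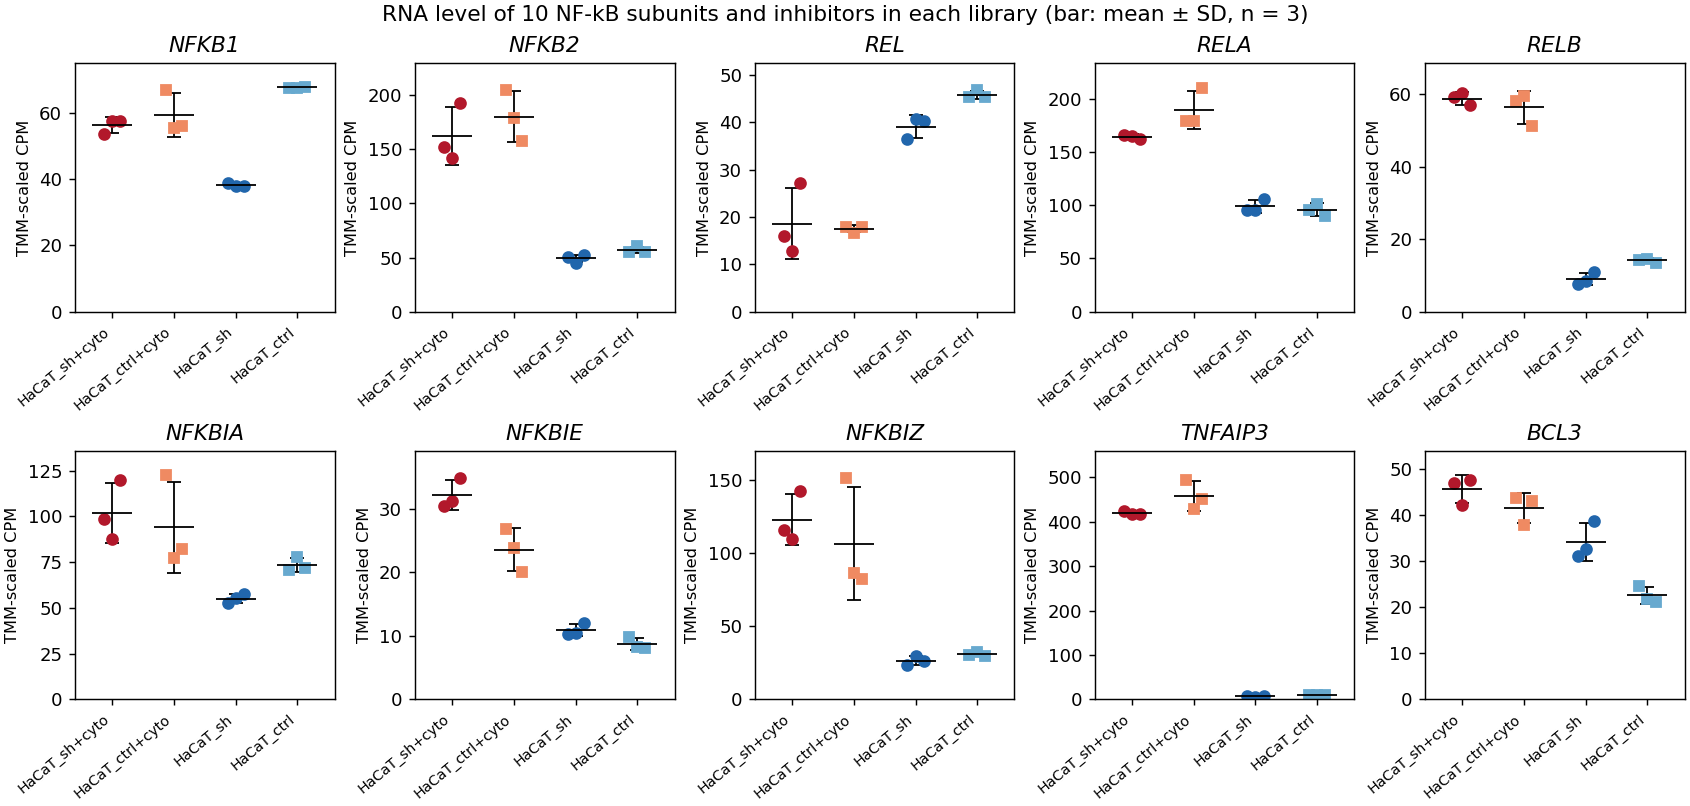
RNA level of each member in TMM-scaled CPM (vertical axes, each from 0) in the 12 libraries, with points for libraries and bars for the mean and SD of 3. TNFAIP3 shows the widest gap between stimulated and unstimulated libraries, REL is lower with cytokines, and NFKB1 is lowest in HaCaT_sh.

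Without cytokines, 0 members were called between the libraries labelled HaCaT_sh and HaCaT_ctrl by edgeR, DESeq2 or limma-voom, where edgeR called 8.87% of all tested genes. The differences were small and mostly downward. At an adjusted p under 0.01 with no fold threshold, 1 member was higher and 6 were lower in HaCaT_sh, where 25.6% and 25.3% of all genes were. At an unadjusted p under 0.05 there were 2 higher and 7 lower, against 32.8% and 33.1% of all genes. The groups of 9 members did not overlap, as for 67.2% of all genes tested. The median over the members was −0.22 on the log2 scale, against −0.00 over all genes.

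The subunits NFKB1 and RELB differed most. NFKB1 averaged 38.2 ± 0.495 CPM in HaCaT_sh and 67.6 ± 0.193 CPM in HaCaT_ctrl (SD, n = 3 each), a log2 fold change of −0.82 (SE 0.0494, adjusted p = 3.30e-09), and was thus 1.77-fold lower. RELB averaged 8.94 ± 1.70 CPM in HaCaT_sh and 14.2 ± 0.557 CPM in HaCaT_ctrl, a log2 fold change of −0.66 (SE 0.117, adjusted p = 1.63e-04). Those of NFKB2 and REL were −0.21 (SE 0.0624, adjusted p = 0.00795) and −0.23 (SE 0.0587, adjusted p = 0.00357), and neither call was stable. With all 12 libraries in 1 fit the adjusted p was 0.137 for NFKB2 and 0.262 for REL, with DESeq2 it was 0.0163 and 0.0114, and of the 6 fits that left out 1 library each gene passed in 2. RELA was the only member whose groups overlapped, with a log2 fold change of 0.05 (interval of 2 SE from −0.06 to 0.16, adjusted p = 0.437), and −0.01 with scaling by library size alone.

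Among the inhibitors, NFKBIA and TNFAIP3 were lower and BCL3 was higher in the libraries labelled HaCaT_sh, all under 2-fold. NFKBIA averaged 55.1 ± 2.50 CPM in HaCaT_sh and 73.5 ± 3.97 CPM in HaCaT_ctrl (log2 fold change −0.41, SE 0.0552, adjusted p = 1.17e-05, and 0.0262 with all 12 libraries in 1 fit). TNFAIP3 averaged 6.98 ± 1.03 CPM in HaCaT_sh and 9.77 ± 0.257 CPM in HaCaT_ctrl (−0.48, SE 0.117, adjusted p = 0.00247), and without the second HaCaT_sh library or the first HaCaT_ctrl library the adjusted p was 0.0147 and 0.0116. BCL3 averaged 34.1 ± 4.07 CPM in HaCaT_sh and 22.5 ± 1.81 CPM in HaCaT_ctrl (0.61, SE 0.0868, adjusted p = 2.27e-05), 1.52-fold higher. NFKBIE and NFKBIZ did not pass an adjusted p of 0.01, with log2 fold changes of 0.34 (SE 0.108, adjusted p = 0.0125) and −0.22 (SE 0.0794, adjusted p = 0.0250). NFKBIE did pass without the first HaCaT_sh library (0.39, adjusted p = 0.00745), without the first HaCaT_ctrl library (0.42, adjusted p = 0.00832) and with no filter (adjusted p = 0.00596), and NFKBIZ without the second HaCaT_sh library (−0.30, adjusted p = 0.00536) and with library size alone (−0.28, adjusted p = 0.00537). Over all of these settings, NFKB1, RELB and BCL3 were the members that passed in each.

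With cytokines, 0 members were called between the libraries labelled HaCaT_sh+cyto and HaCaT_ctrl+cyto by edgeR, DESeq2 or limma-voom, where edgeR called 4.13% of all tested genes. With no fold threshold the count was also 0, against 11.9% of all genes, but it was not 0 in each setting. NFKBIE passed with DESeq2 (adjusted p = 0.00996), with no filter (0.00318) and with all 12 libraries in 1 fit (0.00498). Without the first HaCaT_ctrl+cyto library both NFKBIE (0.55, adjusted p = 0.00963) and NFKBIZ (0.54, adjusted p = 0.00853) passed. At an unadjusted p under 0.05 there were 1 higher, NFKBIE, and 1 lower, RELA, against 20.0% and 21.0% of all genes. The groups of 3 members did not overlap, NFKBIE, RELA and TNFAIP3, as for 45.2% of all genes. NFKBIE averaged 32.2 ± 2.38 CPM in HaCaT_sh+cyto and 23.5 ± 3.42 CPM in HaCaT_ctrl+cyto (log2 fold change 0.45, SE 0.123, adjusted p = 0.0233). RELA averaged 164 ± 1.97 CPM in HaCaT_sh+cyto and 189 ± 17.8 CPM in HaCaT_ctrl+cyto (−0.20, SE 0.0821, adjusted p = 0.0934).

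The intervals of the other differences with cytokines show the precision of each estimate from 3 libraries a group. For NFKB1 the log2 fold change was −0.08, with 2 SE reaching from −0.27 to 0.11, and for RELB it was 0.06, from −0.11 to 0.24 (−0.02 with scaling by library size alone). TNFAIP3 was at −0.12, from −0.28 to 0.04, and BCL3 at 0.14, from −0.05 to 0.32. The intervals of NFKB2 (−0.41 to 0.12), NFKBIA (−0.23 to 0.47), NFKBIZ (−0.21 to 0.63) and REL (−0.37 to 0.56) were wider. These members were not shown to be equal in the 2 lines, but all 10 intervals lay within 2-fold.

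**Figure D3:**
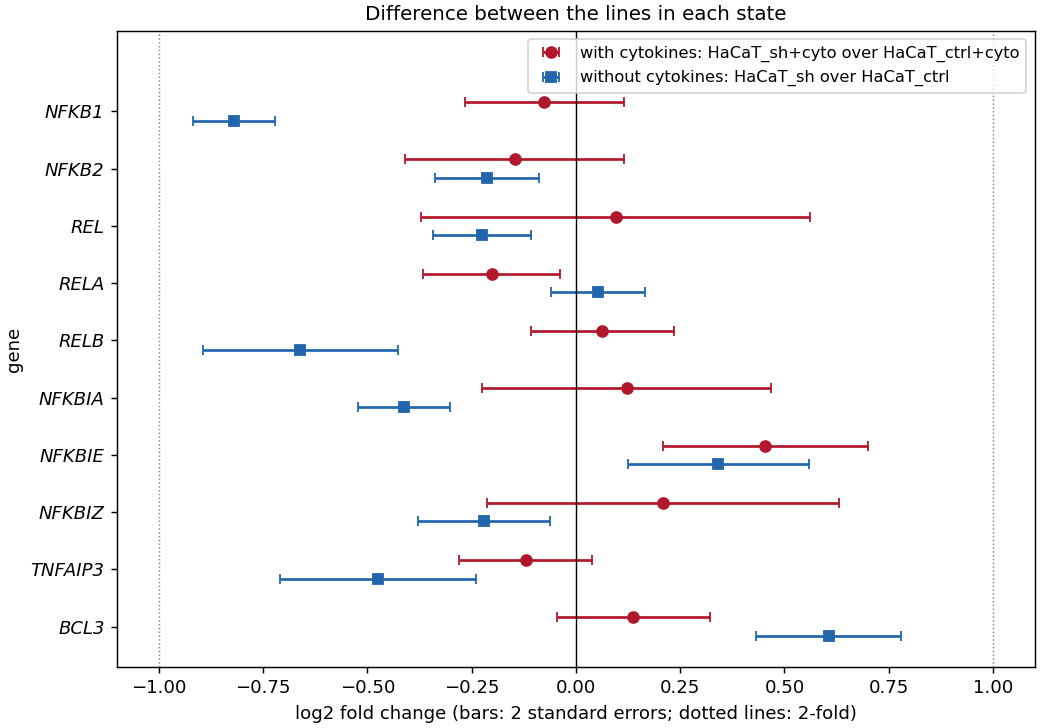
Log2 fold change between the lines for each member (horizontal axis), with cytokines (circles, HaCaT_sh+cyto over HaCaT_ctrl+cyto) and without (squares, HaCaT_sh over HaCaT_ctrl), bars being 2 standard errors and dotted lines 2-fold. NFKB1 lies at −0.82 without cytokines and at −0.08 with them, RELB at −0.66 and 0.06.

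The response of the HaCaT_sh line minus that of the control line, the interaction term of a fit to all 12 libraries, tests whether the lines differed in their response. By edgeR, DESeq2 and limma-voom, 0 members passed the threshold with 2-fold, where edgeR called 2.62% of all genes. At an unadjusted p under 0.05 there were 4 higher and 2 lower, against 15.8% and 16.5% of all genes. With no fold threshold, 2 members passed, both higher, where 3.76% of all genes were. They were NFKB1, with a difference of 0.75 (SE 0.105, adjusted p = 3.23e-04), and RELB, with 0.73 (SE 0.150, adjusted p = 0.00425). NFKB1 kept an adjusted p under 0.01 in all 12 fits that left out 1 library, and RELB in 6 of 12, with a highest value of 0.0152.

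Both are genes whose unstimulated level was lower in the libraries labelled HaCaT_sh and whose stimulated levels overlapped between the lines. The differences of NFKBIA (0.53, adjusted p = 0.0804), TNFAIP3 (0.36, adjusted p = 0.0674) and NFKBIZ (0.43, adjusted p = 0.281) had the same sign and did not pass. The first HaCaT_ctrl+cyto library bore on these: without it NFKBIA was at 0.77 (adjusted p = 0.00108) and NFKBIZ at 0.77 (adjusted p = 0.00169), while TNFAIP3 passed under none of the alternatives. With no filter NFKBIA also passed (0.50, adjusted p = 8.56e-04), as did BCL3 (−0.50, adjusted p = 0.00551). With the filter BCL3 had a difference of −0.47 (adjusted p = 0.0293) and RELA of −0.25 (adjusted p = 0.107), and those of REL, NFKBIE and NFKB2 were 0.32, 0.12 and 0.07 with adjusted p of 0.394, 0.682 and 0.812. All of these comparisons share libraries, so they are not independent of each other.

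**Figure D4:**
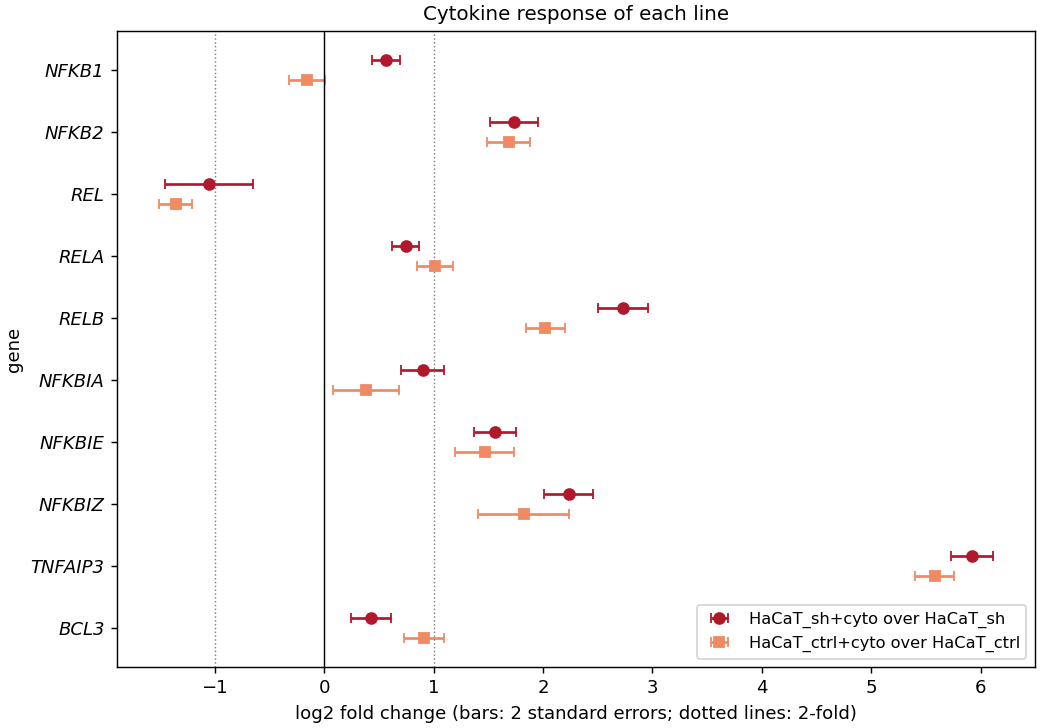
Log2 fold change with cytokines for each member (horizontal axis) in the HaCaT_sh line (circles, HaCaT_sh+cyto over HaCaT_sh) and the control line (squares, HaCaT_ctrl+cyto over HaCaT_ctrl), with bars of 2 standard errors and dotted lines at 2-fold. NFKB1 lies at 0.57 against −0.16 and RELB at 2.73 against 2.02, while NFKB2 lies at 1.74 and 1.69.

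Per kilobase of the canonical transcript, the order of the members changed with cytokines. TNFAIP3 was first at 90.0 ± 0.936 CPM per kilobase in HaCaT_sh+cyto and at 98.0 ± 7.23 in HaCaT_ctrl+cyto, but last at 1.497 ± 0.220 in HaCaT_sh and at 2.09 ± 0.0550 in HaCaT_ctrl. REL was last with cytokines, at 1.68 ± 0.678 in HaCaT_sh+cyto and 1.58 ± 0.0684 in HaCaT_ctrl+cyto. In HaCaT_sh+cyto, NFKBIA (65.4 ± 10.5) and RELA (65.3 ± 0.783) came next and overlapped, followed by NFKB2 at 53.9 ± 8.94. In HaCaT_ctrl+cyto, RELA (75.3 ± 7.08), NFKBIA (60.3 ± 15.8) and NFKB2 (59.8 ± 7.85) overlapped as neighbours. In HaCaT_sh, RELA (39.3 ± 2.32) led NFKBIA (35.4 ± 1.60), and in HaCaT_ctrl NFKBIA (47.2 ± 2.55) led RELA (38.0 ± 2.33), with no overlap between these neighbours in either group.

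The subunits alone, taken as shares of their summed CPM per kilobase, show the makeup of the family's RNA. The shares rest on the canonical transcript length, 11108 bases for REL against 2258 to 4055 for the other subunits. Which transcripts the cells used was not measured. RELA made up 40.7 ± 2.51% in HaCaT_sh+cyto, 42.8 ± 4.73% in HaCaT_ctrl+cyto, 54.2 ± 0.544% in HaCaT_sh and 45.2 ± 0.960% in HaCaT_ctrl. NFKB2 made up 33.4 ± 3.74% and 33.9 ± 3.57% in the stimulated HaCaT_sh+cyto and HaCaT_ctrl+cyto libraries, and 22.5 ± 1.05% and 22.6 ± 0.5005% in HaCaT_sh and HaCaT_ctrl. RELB made up 16.2 ± 1.27% in HaCaT_sh+cyto and 14.2 ± 1.13% in HaCaT_ctrl+cyto, against 5.44 ± 0.750% in HaCaT_sh and 7.47 ± 0.151% in HaCaT_ctrl. The pair of noncanonical subunits, NFKB2 and RELB, held a greater share in the stimulated groups. NFKB1 made up 8.62 ± 0.476% in HaCaT_sh+cyto and 8.28 ± 0.635% in HaCaT_ctrl+cyto, against 13.01 ± 0.754% in HaCaT_sh and 19.9 ± 0.862% in HaCaT_ctrl. REL made up 1.03 ± 0.360%, 0.894 ± 0.0305%, 4.86 ± 0.347% and 4.91 ± 0.124% in the same order of groups.

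**Figure D5:**
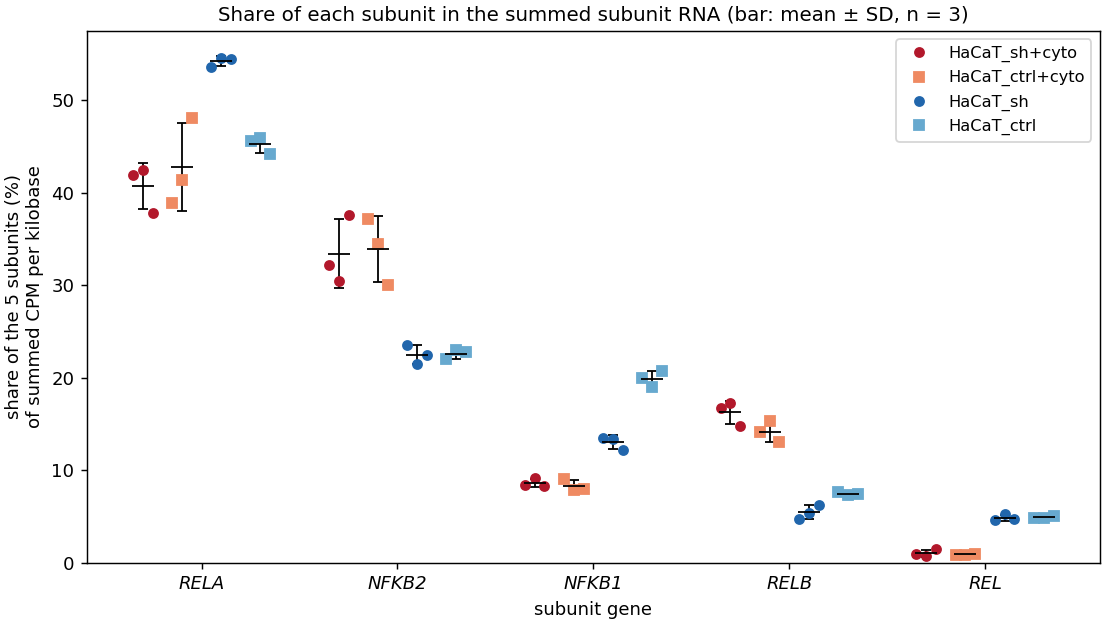
Share of each subunit (vertical axis, percent of the summed CPM per kilobase of 5 subunits) in each library, with bars for the mean and SD of 3. NFKB2 and RELB hold greater shares with cytokines than without, NFKB1 and REL smaller ones, and NFKB1 separates HaCaT_sh at 13.01% from HaCaT_ctrl at 19.9%.

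Ratios within a library do not depend on the scaling between libraries. They were compared with two-sided exact permutation tests, whose smallest p with 3 against 3 libraries is 0.1, so none of the 12 tests could pass 0.05 (the smallest adjusted p was 0.133). The log2 ratio of RELB to RELA averaged −3.48 ± 0.186 in HaCaT_sh and −2.75 ± 0.0396 in HaCaT_ctrl, a difference of −0.73 (SE 0.110). With cytokines it averaged −1.48 ± 0.0264 in HaCaT_sh+cyto and −1.75 ± 0.249 in HaCaT_ctrl+cyto, a difference of 0.26 (SE 0.144). The third HaCaT_ctrl+cyto library was the low one at −2.03, and without it the difference was 0.12.

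The log2 ratio of NFKB2 to NFKB1 averaged 0.36 ± 0.104 in HaCaT_sh and −0.24 ± 0.0781 in HaCaT_ctrl, a difference of 0.61 (SE 0.0751), and with cytokines 1.52 ± 0.222 in HaCaT_sh+cyto and 1.60 ± 0.1004 in HaCaT_ctrl+cyto, which overlapped. That of NFKBIA to RELA, an inhibitor against the subunit it holds, averaged −0.84 ± 0.0519 in HaCaT_sh and −0.38 ± 0.0603 in HaCaT_ctrl, a difference of −0.46 (SE 0.0459). With cytokines it averaged −0.70 ± 0.243 in HaCaT_sh+cyto and −1.04 ± 0.429 in HaCaT_ctrl+cyto, with overlapping groups. Of the 12 comparisons, 9 had groups that did not overlap.

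Each member was also set beside the genes most like it over the 12 libraries, by Pearson's r of log2 CPM among 10576 expressed genes. These are descriptions over 12 libraries that share the cytokine contrast, which alone gives a high r. NFKBIZ lay closest to PPP4R2 (r 0.998), and 2126 genes reached an r of 0.9 with it. RELB lay closest to RNASE7 (0.995), an antimicrobial ribonuclease of skin, and REL to TRIM22 (0.990). NFKB1 and NFKBIA had the least common patterns, with only 31 and 102 genes at an r of 0.9 or more. The named gene closest to NFKB1 was IRX5 (0.973).

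The other genes of the pathway give the setting of these changes. Upstream, 9 of 11 genes of the IKK complex and other IkB proteins were tested. Called genes were 1 higher and 1 lower in the HaCaT_sh line, and 0 higher and 1 lower in the control line. Of all tested genes, 14.9% were called higher and 21.0% lower in the HaCaT_sh line, and 14.7% and 21.1% in the control line. These shares also stand beside the cytokine responses of the lists below. NFKBIB, another cytoplasmic IkB, rose to 32.0 ± 0.879 CPM in HaCaT_sh+cyto, against 14.4 ± 0.960 CPM in HaCaT_sh (1.16 on the log2 scale, adjusted p = 3.23e-07). In the control line it was at 32.8 ± 2.11 CPM in HaCaT_ctrl+cyto, against 17.3 ± 1.49 CPM in HaCaT_ctrl (0.95, adjusted p = 7.12e-06, just under 2-fold), and its interaction did not pass (0.22, adjusted p = 0.230). MAP3K14 (NIK), the kinase that starts p100 processing, fell to 11.5 ± 0.688 CPM in HaCaT_sh+cyto, against 23.96 ± 0.424 CPM in HaCaT_sh (−1.05, adjusted p = 1.25e-06), and to 10.1 ± 1.49 CPM in HaCaT_ctrl+cyto, against 24.01 ± 1.41 CPM in HaCaT_ctrl (−1.22, adjusted p = 6.29e-06). The list's median was 0.16 in the HaCaT_sh line and 0.22 in the control line.

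Of 21 genes of TNF receptors and their ubiquitin signalling, 20 were tested, with 4 called higher and 2 lower in the HaCaT_sh line and 3 higher and 1 lower in the control line. TRAF3, the adaptor that keeps NIK low in resting cells, rose to 86.5 ± 3.97 CPM in HaCaT_sh+cyto, against 20.6 ± 0.399 CPM in HaCaT_sh (2.08, adjusted p = 1.08e-09), and to 79.6 ± 2.87 CPM in HaCaT_ctrl+cyto, against 20.5 ± 1.94 CPM in HaCaT_ctrl (1.99, adjusted p = 1.38e-08). RBCK1 (HOIL-1), a subunit of the linear ubiquitin ligase, rose by 1.38 in the HaCaT_sh line (adjusted p = 2.09e-08) and by 1.26 in the control line (adjusted p = 2.85e-06) on the log2 scale. TAB3 rose by 1.02 in the HaCaT_sh line (adjusted p = 9.34e-07) and by 1.91 in the control line (adjusted p = 6.17e-09). Its interaction was under 2-fold and passed only with no fold threshold (−0.87, adjusted p = 2.20e-04). TNFRSF1A, the main TNF receptor, fell to 116 ± 22.2 CPM in HaCaT_sh+cyto, against 285 ± 18.5 CPM in HaCaT_sh (−1.29, adjusted p = 1.65e-06). It was at 91.4 ± 6.14 CPM in HaCaT_ctrl+cyto, against 182 ± 6.52 CPM in HaCaT_ctrl (−0.96, adjusted p = 5.65e-07, just under 2-fold), and its interaction did not pass (−0.31, adjusted p = 0.166). TRAF5, the other gene called lower in the HaCaT_sh line and the one called lower in the control line, had no stimulated library at 1 CPM and so passed the filter only through the unstimulated libraries. The list's median was 0.25 and 0.23 in the HaCaT_sh and control lines.

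Between the lines, CD40, a TNF receptor family member that feeds both branches of NF-kB, was the one gene of that list called. It was at 17.1 ± 1.37 CPM in HaCaT_sh, against 4.15 ± 0.354 CPM in HaCaT_ctrl (2.04, SE 0.111, adjusted p = 1.20e-09), and at 13.3 ± 2.33 CPM in HaCaT_sh+cyto, against 5.11 ± 0.609 CPM in HaCaT_ctrl+cyto (1.39, SE 0.172, adjusted p = 7.28e-04). None of the 9 IKK and IkB genes or the 11 tested of 13 other brakes was called between the lines in either state. Of all tested genes, 8.87% were called between the lines without cytokines and 4.13% with them.

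Of 10 genes of the IL-17 receptor arm, 3 were called higher and 2 lower in the HaCaT_sh line, and 5 higher and 1 lower in the control line. CEBPB, a transcription factor induced by IL-17, rose to 239.6 ± 38.8 CPM in HaCaT_sh+cyto, against 56.3 ± 4.18 CPM in HaCaT_sh (2.10, adjusted p = 4.49e-08), and to 316 ± 35.9 CPM in HaCaT_ctrl+cyto, against 47.0 ± 4.63 CPM in HaCaT_ctrl (2.78, adjusted p = 6.64e-09). IL17RC, a subunit of the IL-17 receptor, fell to 6.62 ± 0.407 CPM in HaCaT_sh+cyto, against 16.6 ± 1.26 CPM in HaCaT_sh (−1.32, adjusted p = 1.46e-06), and to 5.11 ± 0.534 CPM in HaCaT_ctrl+cyto, against 16.6 ± 0.799 CPM in HaCaT_ctrl (−1.67, adjusted p = 6.14e-07). IL17RD, another member of the receptor family, was called higher in the libraries labelled HaCaT_sh in both states (1.87, adjusted p = 2.65e-04, without cytokines, and 1.83, adjusted p = 0.00103, with them), but no HaCaT_ctrl library reached 1 CPM, so that in the unstimulated comparison and in the control line's response it passed the filter only through the group where it was high. The list's median with cytokines was 0.58 in the HaCaT_sh line and 0.85 in the control line.

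The other brakes on NF-kB signalling, 11 tested of 13, had 2 called higher and 0 lower in each line. TNIP1, the partner of A20, rose to 418 ± 23.3 CPM in HaCaT_sh+cyto, against 119.7 ± 1.06 CPM in HaCaT_sh (1.82, adjusted p = 1.33e-09), and to 381 ± 22.2 CPM in HaCaT_ctrl+cyto, against 104 ± 3.01 CPM in HaCaT_ctrl (1.90, adjusted p = 5.46e-09). TRIB3, a pseudokinase, rose by 2.72 in the HaCaT_sh line (adjusted p = 2.42e-08) and by 3.33 in the control line (adjusted p = 1.96e-09) on the log2 scale. The list's median was 0.52 and 0.61 in the HaCaT_sh and control lines.

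Of 25 textbook NF-kB targets, 15 were tested in the HaCaT_sh line and 16 in the control line. Among these, 4 genes in the HaCaT_sh line (CXCL3, CSF2, CSF3 and MMP9) and 6 in the control line (these with IL1A and CD83) had no unstimulated library at 1 CPM. They passed the filter only through the stimulated libraries and so had to come out higher. Of the targets with a library at 1 CPM in both groups, 9 of 10 were called higher in the HaCaT_sh line and 8 of 9 in the control line, and PLAU was the other one in both. IL32, a cytokine, rose by 5.82 in the HaCaT_sh line (adjusted p = 1.05e-09) and by 5.28 in the control line (adjusted p = 3.24e-09) on the log2 scale. IER3, an early response gene, rose by 2.78 (adjusted p = 1.20e-09) in the HaCaT_sh line and by 3.29 (adjusted p = 6.17e-09) in the control line. CCL2, a monocyte chemokine, chosen after its values were seen, was the gene called lower and passed only through the unstimulated libraries, at 0.319 ± 0.212 CPM in HaCaT_sh+cyto, against 3.50 ± 1.68 CPM in HaCaT_sh, and at 0.0832 ± 0.0331 CPM in HaCaT_ctrl+cyto, against 4.51 ± 0.359 CPM in HaCaT_ctrl. Between the lines without cytokines, 4 of 11 were called higher, 1 of them, IL1A, with no HaCaT_ctrl library at 1 CPM, and 1 was called lower. With cytokines 1 of 15 was called higher and 1 lower. The shares over all tested genes, in either direction, were 8.87% without cytokines and 4.13% with them.

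The interleukin genes IL1A and IL1B were the 2 of 15 targets called in the interaction, both lower, where 2.62% of all genes were called. IL1A was at 55.6 ± 3.98 CPM in HaCaT_sh+cyto, against 2.75 ± 0.320 CPM in HaCaT_sh, and at 56.9 ± 13.1 CPM in HaCaT_ctrl+cyto, against 0.541 ± 0.188 CPM in HaCaT_ctrl (interaction −2.34, SE 0.368, adjusted p = 6.75e-04). IL1B was at 87.6 ± 3.597 CPM in HaCaT_sh+cyto, against 8.83 ± 0.932 CPM in HaCaT_sh, and at 92.8 ± 33.7 CPM in HaCaT_ctrl+cyto, against 1.66 ± 0.648 CPM in HaCaT_ctrl (interaction −2.47, SE 0.381, adjusted p = 5.98e-04). Their unstimulated levels were higher in the libraries labelled HaCaT_sh, the opposite side from NFKB1 and RELB.

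Of 10 genes reported to need IkBζ in keratinocytes, 7 were tested with cytokines. IL36G and CSF3 passed the filter only through the stimulated libraries, since no unstimulated one reached 1 CPM, and had to come out higher. Of the other 5, called genes were 2 higher and 2 lower in the HaCaT_sh line and 2 higher and 3 lower in the control line. LCN2, an antimicrobial protein that sequesters siderophores, was at 6578 ± 49.3 CPM in HaCaT_sh+cyto, against 336 ± 26.1 CPM in HaCaT_sh (4.30, adjusted p = 4.83e-11), and at 8088 ± 1765 CPM in HaCaT_ctrl+cyto, against 409 ± 21.5 CPM in HaCaT_ctrl (4.34, adjusted p = 6.25e-09). S100A9, a subunit of calprotectin, fell to 8.25 ± 1.70 CPM in HaCaT_sh+cyto, against 35.6 ± 6.26 CPM in HaCaT_sh, and to 1.45 ± 1.01 CPM in HaCaT_ctrl+cyto, against 44.1 ± 1.83 CPM in HaCaT_ctrl. The interaction called 3 of the 7 higher, where 2.62% of all genes were called in either direction. They were S100A7 (3.99, adjusted p = 4.18e-06), S100A8 (3.61, adjusted p = 4.22e-05) and S100A9 (2.84, adjusted p = 1.12e-04). In HaCaT_ctrl+cyto, S100A7 and S100A8 were near the floor, at 0.815 ± 0.397 and 0.698 ± 0.399 CPM. S100A8 was not called in the HaCaT_sh line (0.23, adjusted p = 0.299). The interaction of NFKBIZ did not pass (0.43, adjusted p = 0.281), but did without the first HaCaT_ctrl+cyto library (0.77, adjusted p = 0.00169). Any part of IkBζ in these differences was not tested.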

How the data were processed

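RNA of 12 libraries was sequenced by the authors, who trimmed reads with Cutadapt (base quality 10, shortest read 25 bases) and mapped these with STAR to hg19 and Gencode 19. Which program counted the reads, and with which strand setting, is not given in the sources used here. Whole-number counts per gene, deposited by the authors, were used as they stand. A second deposited table, of scaled values, was not used. Groups followed the labels, which call the 3 libraries of a group biological replicates, so p-values measure the spread between these libraries. Members were matched by Ensembl identifier with Gencode 44 lifted to GRCh37, which named 55010 of 57370 genes. Genes of the lists were found by these names. A list gene without a matching name was left untested, as was one under the filter, and the text does not tell these apart. Libraries held 13079055 to 17308021 counts. The biological coefficient of variation ran between 4.65% and 11.0% over the 5 fits, which sets the precision of a fold change.

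The software was edgeR 4.0.16, limma 3.58.1 and DESeq2 1.42.0 under R 4.3.3, and Python 3.11.15. A comparison took the libraries of its groups and the genes that reached 1 CPM in 50% of them or more. Counts were scaled by TMM and tested by edgeR's quasi-likelihood test, with the Benjamini-Hochberg adjustment across every tested gene. Where no tool is named beside an adjusted p, it is edgeR's. Calls needed a 2-fold difference with an adjusted p under 0.01. Levels are CPM scaled by TMM over all 12 libraries, and ratios used counts plus 0.5. All 10 members were named in each comparison. Of each list only called genes were named, up to 4 with the smallest p, besides genes said to be chosen after their values were seen. Some genes that these rules give are not reported here. The members and lists were chosen with earlier results of these data known. Alternatives were RLE scaling, library size alone, DESeq2, limma-voom, no filter, filterByExpr, no fold threshold, an adjusted p below 0.05, all 12 libraries in 1 fit, a replicate block and leaving out each library. The procedure was tested on simulated data. Promoters are from RefSeq on GRCh38.p14, another build than that of the counts, and were used for sequence only.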

Additional observations from a re-analysis of the deposited data

Results flagged for a closer look

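The cytokine response of NFKB1 differed between the lines by 0.75 on the log2 scale in the interaction test (SE 0.105, adjusted p = 3.23e-04, edgeR), as the response of the HaCaT_sh line minus that of the control line. The response of RELB differed by 0.73 in the same test (SE 0.150, adjusted p = 0.00425). Both differences were under 2-fold. The other settings with all libraries gave adjusted p-values of 1.40e-07 to 9.09e-04 for NFKB1 and of 1.46e-04 to 0.00870 for RELB. Without 1 library they were 1.45e-05 to 0.00159 for NFKB1 and 0.00110 to 0.0152 for RELB, where 6 of 12 were under 0.01. Since the targeted gene IQGAP3 was higher in the libraries labelled HaCaT_sh than in HaCaT_ctrl, the direction holds for the labelled libraries.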

How the results depend on the processing

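Of the members' log2 fold changes under the alternatives, 820 kept their direction and side of the threshold, 14 newly passed it, 6 no longer passed it and 10 changed sign. All 14 that newly passed did so with no fold threshold. That setting and an adjusted p below 0.05 reuse the reported fit, so fold changes under them could not change sign. The counts of members called were equal to the reported ones in 75 cases, changed by 1 in 7 and by more in 3. Those 3 were the counts with no fold threshold, which gave 7 members for HaCaT_sh against HaCaT_ctrl, 10 for HaCaT_sh+cyto against HaCaT_sh and 2 for the interaction. The control line's response had 8 members with no fold threshold and 6 with library size alone, with all 12 libraries in 1 fit, or without the third library of either group. That of the HaCaT_sh line had 5 without the first or the second HaCaT_sh+cyto library. The cause of a change was not tested unless the setting itself is the threshold.

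RELA in the control line's response was 0.80 with library size alone and 1.00 (under 2-fold) with all 12 libraries in 1 fit. Library size alone moved the median of all genes by −0.21 in both responses, so that 30.5% of calls in the HaCaT_sh line and 30.1% in the control line were higher, in place of 41.6% and 41.1%. It gave −0.013 for RELA without cytokines and −0.015 for RELB with them. The log2 fold change with cytokines between the lines changed sign for NFKB1 when 1 library was left out (range −0.12 to 0.013), REL (−0.28 to 0.30), RELB (−0.0044 to 0.11) and NFKBIA (−0.011, or −0.0011, to 0.35). The interaction did so for NFKB2 (−0.088 to 0.17) and REL (−0.059 to 0.51), and the NFKB2 to NFKB1 ratio with cytokines (−0.19 to 0.029). None of these had passed a test. IQGAP3 without cytokines passed with no fold threshold (0.50). With cytokines IQGAP3 passed at an adjusted p below 0.05 (−1.44), with DESeq2 (−1.43), with no filter (−1.44) and with all 12 libraries (−1.45), and leaving out 1 library gave −1.72 to −1.27. These IQGAP3 alternatives were chosen after seeing the data.

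Replicate numbers were not taken to pair the libraries. The correlations of same-numbered deviations ran between −0.14 and 0.20, and those of different-numbered ones between −0.23 and 0.25. These ranges show no pairing but cannot exclude a shared batch. With the replicate block, members called were 0 without cytokines between the lines, 7 in the control line, 6 in the HaCaT_sh line, 0 with cytokines between the lines and 0 in the interaction, and the calls over all genes with cytokines between the lines were 260 higher and 150 lower, against 317 and 207 without it. With 3 libraries a group, the intervals given for the stimulated lines show the precision of each estimate and not a limit of detection. Those of NFKBIA, NFKBIZ and REL were the widest.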
